A study of Mus musculus with 238 samples.

Results

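The circadian clock output genes described here were Dbp, Tef, Hlf, Nfil3 and Usp2, 5 of the 21076 gene rows of the count table. They were chosen by name, as genes whose transcription is driven by the core clock, and each was followed in every tissue by treatment. The choice was made with earlier results of these data known. Shares over all genes set beside the members below are therefore a description and no test of the members as a set. RNA was sequenced from brain regions and liver of C57BL/6JN mice, all 19 months old, in 2 separate experiments. The diet experiment used females that were fed ad libitum (AL, 4 mice, 58 brain libraries) or were dietary restricted (aDR, 5 mice, 73 brain libraries), and their livers were sequenced too (4 AL livers and 5 livers of restricted mice, labelled DR). In the plasma experiment, male mice received plasma of young mice (YMP, 3 mice, 44 brain libraries) or saline (PBS, 4 mice, 54 brain libraries) by retro-orbital injection. No library carried a genetic modification in its labels, and all females belonged to one experiment and all males to the other, so sex and experiment cannot be told apart. The hour of tissue collection, the hours of feeding, the degree and length of restriction and the plasma dose are not given in the sources used here. Since transcripts of the clock rise and fall over the day, a shift in daily phase and a change in overall level cannot be told apart in these values.

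The clock is a transcription loop in which the activators Clock and Bmal1 (the product of Arntl) bind E-box elements and drive the Per, Cry and Nr1d repressors as well as output genes. Dbp, Tef and Hlf encode the PAR bZIP family, related transcription factors that bind D-box elements and carry the rhythm to downstream genes, in liver chiefly genes of detoxification and metabolism. Nfil3, also called E4BP4, is a bZIP repressor that binds the same D-box elements and oscillates opposite to the activating members. Usp2 encodes a ubiquitin-specific protease that is rhythmic in many tissues and acts on clock and signalling proteins.

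The promoter sequences near the annotated starts were read first, because they show which of the known clock elements stand close to the start of each member. The windows were RefSeq promoters of the GRCm38.p6 build, 250 bases before to 50 bases after a start, and 6 elements were searched on both strands: the E-box CACGTG, its variant CACGTT, the D-box (TTATGTAA or TTACGTAA), the RORE, the cAMP response element (CRE, TGACGTCA) and the glucocorticoid response element. All 5 members were matched, Tef with 2 starts and the others with 1. Each Tef start had an E-box upstream of it, and the Hlf window had a CRE 9 bases upstream. The stretches around these matches are printed 5′ to 3′ on the strand of the gene, with the matched element in capitals.
Tef, first start (chr15:81802516-81802581, plus strand): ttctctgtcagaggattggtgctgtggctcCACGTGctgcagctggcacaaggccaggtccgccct
Tef, second start (chr15:81811246-81811311, plus strand): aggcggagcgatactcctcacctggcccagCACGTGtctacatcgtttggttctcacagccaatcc
Hlf (chr11:90390918-90390956, minus strand): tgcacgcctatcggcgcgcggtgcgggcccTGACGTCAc
The E-boxes began 127 and 138 bases upstream of the 2 Tef starts. Of the 19490 promoter windows of the same length, 8.18% held the E-box and 2.33% held the CRE. The E-box variant was in 4.82% of windows, the D-box in 0.965%, the RORE in 0.231% and the glucocorticoid element in 0.446%. None of these letters occurred in the Dbp, Nfil3 and Usp2 windows, which says nothing about elements elsewhere in those genes.

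The measurements were read counts per gene from unstranded full-length cDNA libraries. Levels are given as CPM, the usual unit of counts scaled to library size, after TMM normalisation computed over all brain libraries together and over the livers on their own. Depth varied from 0.606 M to 32.4 M counts a library (M for mega), median 8.44 M, and was under 2 M in 6 libraries. The members were well covered. The lowest count in any library was 34 for Dbp, 141 for Tef, 94 for Hlf, 14 for Nfil3 and 47 for Usp2, and all 5 passed the filter on low counts in all 31 comparisons between treatments. Markers of the labelled tissue were found in each tissue, although the choroid plexus, hypothalamus, entorhinal cortex and pons libraries differed widely in theirs. In whole tissue, fewer cells of a type and less RNA per cell cannot be told apart. The labels name separate mice as replicates. In 1 pons library, from aDR mouse 67, the 10 most abundant genes took 23.4% of the counts, against at most 8.74% elsewhere in the brain. Leaving it out changed no member's call across the brain.

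Across the brain, Dbp, Usp2 and Tef rose and Nfil3 fell in dietary restricted mice. Hlf was higher on average without passing the test. To compare the diets with the mouse as the unit, each mouse was given a single value per gene, its deviation from the mean of the experiment on the log2 scale after region was taken out, and the values of the 5 aDR and 4 AL mice were tested with limma over all genes (called at an adjusted p under 0.05). By this rule 272 of 15616 genes were called, 1.74% of those tested. In the higher direction 0.98% of genes were called and in the lower direction 0.762%.

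Among the PAR bZIP activators, Dbp differed the most. Its mouse values were 0.09, 0.13, 0.29, 0.11 and 0.21 in aDR mice 61, 62, 64, 65 and 67, and -0.15, -0.22, -0.28 and -0.17 in AL mice 63, 66, 68 and 69. All aDR mice were above all AL mice, as was true in one direction or the other for 8.3% of genes. The difference was 0.37 on the log2 scale (SE 0.044, limma adjusted p = 0.0034), or 1.29-fold. Tef, its close relative, had values of 0.08, 0.05, 0.13, 0.07 and 0.04 in the aDR mice and of -0.06, -0.12, -0.12 and -0.08 in the AL mice. The groups again did not overlap, with a difference of 0.17 (SE 0.027, limma adjusted p = 0.0158), or 1.12-fold. Hlf, the third member of the family, had aDR values of 0.11, 0.11, -0.03, 0.05 and 0.17 and AL values of 0.02, -0.05, -0.30 and -0.07. These groups overlapped, AL mouse 68 was far below the rest, and the difference of 0.18 (SE 0.061) missed the threshold (limma adjusted p = 0.167). With that mouse left out, the Hlf difference was 0.11 (limma adjusted p = 0.313). With each library as an observation and the mouse as a replicate block, Hlf passed (0.17, limma-voom adjusted p = 0.027). That fit called 1475 of 15616 genes.

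Nfil3, the repressor that competes for the D-box, moved the other way. Its values were -0.11, -0.12, -0.07, -0.06 and -0.11 in the aDR mice and 0.09, 0.13, 0.12 and 0.14 in the AL mice. Every aDR mouse was below every AL mouse, and the difference was -0.21 (SE 0.033, limma adjusted p = 0.0150), or 0.863-fold. Usp2 had values of 0.17, 0.07, 0.16, 0.10 and 0.16 in the aDR mice and of -0.14, -0.20, -0.22 and -0.10 in the AL mice. The groups did not overlap either, and the difference of 0.30 (SE 0.032, limma adjusted p = 0.0021), or 1.23-fold, had rank 9 among all 15616 genes in order of p, ahead of Dbp at rank 17, Nfil3 at 52 and Tef at 54. The Dbp and Usp2 calls held when any single mouse was left out, with adjusted p up to 0.018 and 0.013. The Tef call was lost without AL mouse 66 (0.16, limma adjusted p = 0.066) or AL mouse 68 (0.16, limma adjusted p = 0.057). The Nfil3 call was lost without AL mouse 66, 68 or 69 (-0.21 in each case, limma adjusted p = 0.066, 0.056 and 0.051). Summed markers of neurons, astrocytes, microglia, endothelium and red blood cells had different medians in the diets, with ranges that overlapped. In aDR and AL mice the medians were 5607 and 5351 CPM for neurons, 990 and 1078 CPM for astrocytes and 242 and 253 CPM for microglia. The summed CPM of 4 endothelial markers, none at 0 in any library, was 115 to 127 (median 124) in aDR mice and 125 to 156 (median 139) in AL mice. Over brain libraries, Cldn5, Pecam1 and Flt1 had lower medians in aDR, and Ly6c1 did not (42.7 CPM in aDR, 41.7 CPM in AL). The summed CPM of 5 red blood cell markers was 8.91 to 37.3 (median 23.3) in aDR and 10.01 to 11.6 (median 10.2) in AL mice, with the 4 globin genes at 0 in 2 to 12 libraries of a diet group and Alas2 in none. The part of these cell types in the differences was not tested.

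**Figure D1:**
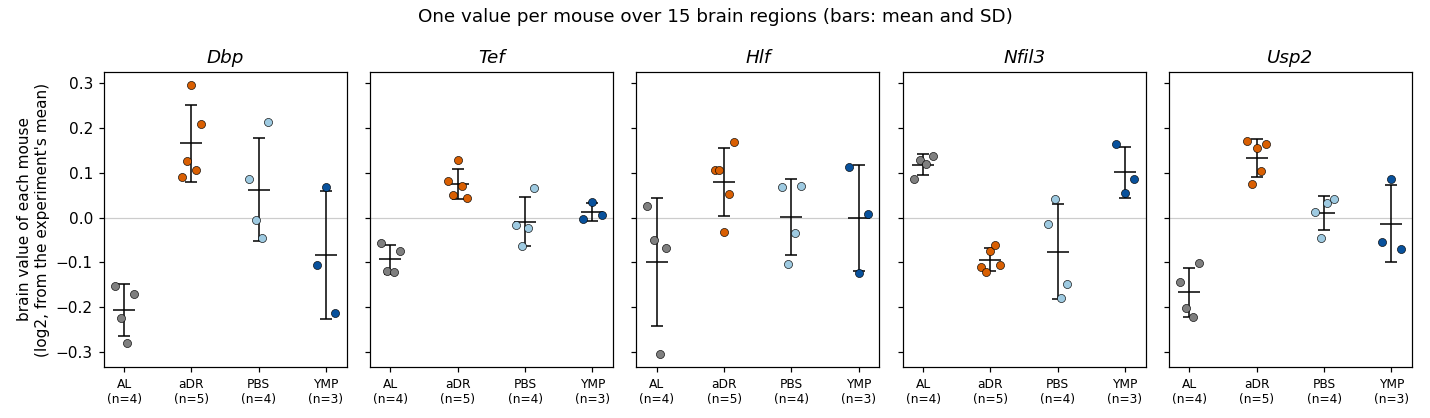
Value of each mouse over 15 brain regions (log2, deviation from the mean of the experiment, region taken out) for the 5 genes, with points for mice, horizontal bars for the group mean and error bars for the SD. The aDR and AL mice separate for Dbp, Tef, Nfil3 and Usp2 and overlap for Hlf. The YMP and PBS mice overlap for every gene but Nfil3.

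The Dbp value needs a reading limit. The annotated exons of Dbp share 539 bases with those of Sphk2, a sphingosine kinase gene on the opposite strand, which is 18.0% of the 2993 exonic bases of Dbp and 12.96% of the 4159 of Sphk2 (GENCODE M21, GRCm38). The libraries carry no strand, so reads from the shared stretch cannot be assigned to one gene. Sphk2 itself had medians of 60.8 CPM in aDR and 53.5 CPM in AL brain libraries, and its diet difference of 0.17 (SE 0.038, limma adjusted p = 0.0503) just missed the threshold. Tef overlaps an antisense transcript (Gm17597) and Usp2 overlaps 2 genes on the opposite strand (Gm49380 and Gm39325), none of them a row of the table.

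By region, the direction held almost everywhere although few single regions passed the test. Dbp, Tef and Usp2 were each higher in aDR in 15 of 15 regions, which was the case for 1.69% of genes tested in all regions. Nfil3 was lower in 14 of 15, the exception being visual cortex at 0.04. The share of genes lower in all 15, a stricter condition that Nfil3 did not meet, was 0.84%. The share lower in at least 14 was not computed. Hlf was higher in 13 of 15 and lower in medulla (-0.20) and anterior hippocampus (-0.07). The regions come from the same mice, so they do not count as separate replicates of the diet. For single regions and for liver, the share of all genes whose groups did not overlap was not computed. A lack of overlap given for a member there has no such share beside it. Within a region, tested alone with edgeR's quasi-likelihood test, 7 of the 75 member-by-region tests were called, against 0.0544% of such tests over all genes. They were Dbp in visual cortex, motor cortex, cerebellum and olfactory bulb, Tef in olfactory bulb and visual cortex, and Hlf in cerebellum. DESeq2 called 12, adding Tef (0.28, DESeq2 adjusted p = 6.81e-04) and Usp2 (0.33, 0.0083) in cerebellum, Hlf in olfactory bulb (0.23, 0.0124) and Usp2 in SVZ (0.47, 3.42e-04) and visual cortex (0.30, 0.0096). DESeq2 also called more genes of every kind: 168 in cerebellum, 122 in olfactory bulb, 12 in SVZ and 47 in visual cortex. By edgeR these numbers were 7, 31, 3 and 27.

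Dbp spanned changes from 0.07 in medulla to 0.53 in visual cortex with a median of 0.41. Tef ran from 0.06 in pons to 0.44 in olfactory bulb with a median of 0.13. Hlf ran from -0.20 in medulla to 0.41 in SVZ with a median of 0.20. For Nfil3, medulla had the lowest value (-0.46), and the median was -0.23. Usp2 ran from 0.11 in anterior hippocampus to 0.50 in hypothalamus with a median of 0.30. Its smallest adjusted p in a single brain region by edgeR was 0.0565, in visual cortex (0.30). It was called there by edgeR without a filter on low counts (adjusted p = 0.0165), without AL mouse 63 (0.039) and without aDR mouse 67 (0.043). A test of whether the diet effect differed between regions called none of the 5 genes (edgeR's quasi-likelihood F test, adjusted p = 1 for each, unadjusted p from 0.123 for Tef to 0.547 for Dbp). That test called 0.0128% of genes, and 334 genes had an unadjusted p under 0.05.

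**Figure D2:**
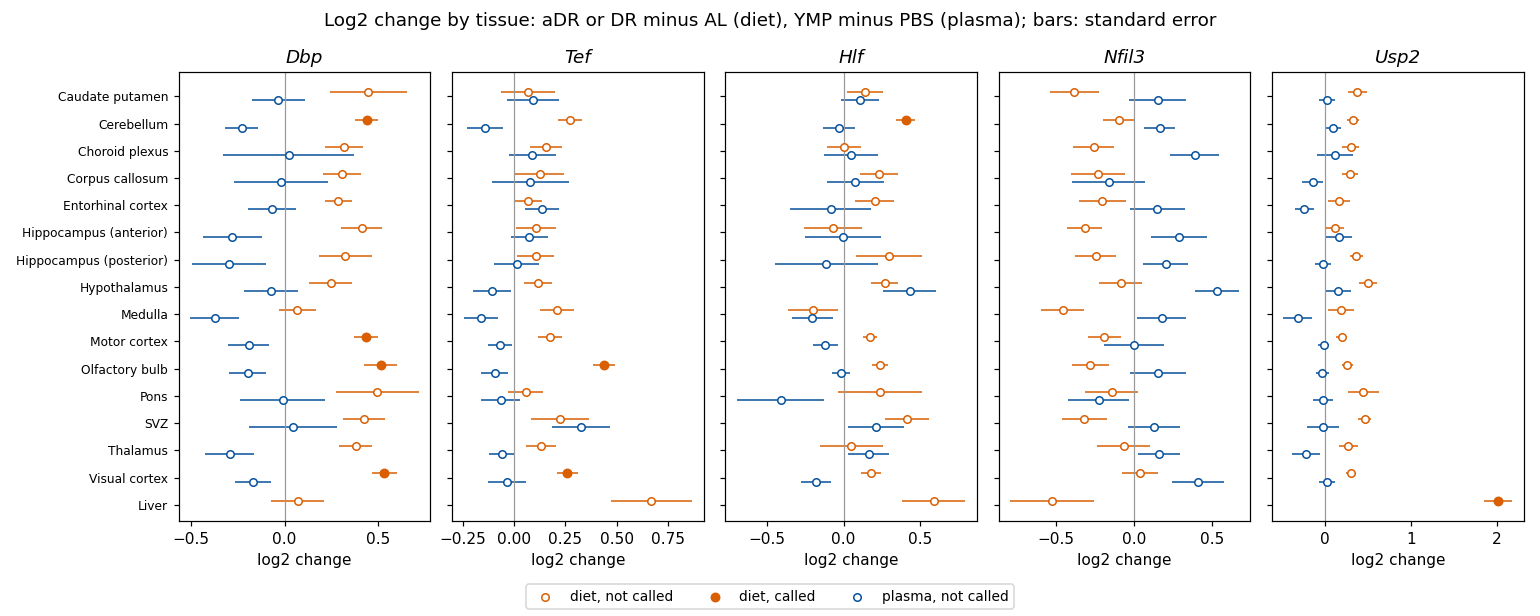
Log2 change of each gene (horizontal axis) in 15 brain regions and liver (rows), aDR or DR minus AL in orange and YMP minus PBS in blue. Bars are standard errors and filled points passed an edgeR adjusted p of 0.05. Orange points lie right of 0 in all regions for Dbp, Tef and Usp2 and left of it in 14 of 15 for Nfil3, and the liver point of Usp2 lies apart at 2.01.

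In visual cortex, where 0.202% of genes were called, Dbp had 162, 161, 176, 151 and 147 CPM in aDR mice 61, 62, 64, 65 and 67, and 120.1, 104, 101 and 109 CPM in AL mice 63, 66, 68 and 69. The lowest aDR library was above the highest AL library, and the difference was 0.53 (SE 0.069, edgeR adjusted p = 7.48e-04), or 1.45-fold. Tef in the same libraries had 379, 399, 384, 384 and 371 CPM against 334, 330, 299 and 307 CPM. The groups did not overlap (0.26, SE 0.052, edgeR adjusted p = 0.0453), but this call was lost without any one of mice 61, 62, 64, 65, 66, 68 or 69, with adjusted p up to 0.215 (0.24, without AL mouse 68).

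In motor cortex, where 0.251% of genes were called, Dbp had 131, 153, 153, 138 and 132 CPM in aDR mice and 112, 99.6, 102 and 107 CPM in AL mice. No aDR library fell within the AL range (0.44, SE 0.063, edgeR adjusted p = 0.0039). Like the call in visual cortex, this one held without any single mouse, with adjusted p up to 0.043.

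In cerebellum, where 0.0524% of genes were called, 2 members of the family passed. Dbp had 129.6, 131, 131, 119 and 142 CPM in aDR mice and 101, 94.6, 87.0 and 98.0 CPM in AL mice (0.44, SE 0.062, edgeR adjusted p = 0.030). Hlf had 147, 148, 168, 164 and 142 CPM in aDR mice and 119, 121, 106 and 115 CPM in AL mice (0.40, SE 0.060, edgeR adjusted p = 0.030). Both were higher in every aDR than in any AL library. Leaving out a mouse ended the Dbp call for mice 61, 64, 66, 67 and 68 and the Hlf call for every mouse but 62 and 67, with adjusted p up to 0.144 for both (0.43 for each, without AL mouse 66).

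In olfactory bulb, where 0.22% of genes were called, Tef had its largest brain change. It stood at 288, 266, 288, 296 and 273 CPM in aDR mice and at 207, 205, 203 and 219 CPM in AL mice. The groups were well apart (0.44, SE 0.054, edgeR adjusted p = 0.0085, 1.35-fold), and the call was narrowly lost without aDR mouse 64 or AL mouse 66 (0.43 in each case, edgeR adjusted p = 0.055). Dbp averaged 128 ± 11.0 CPM (SD, n = 5) in aDR and 90.2 ± 12.1 CPM (SD, n = 4) in AL olfactory bulb without overlap (0.51, SE 0.090, edgeR adjusted p = 0.0432). That call was lost without any one of mice 61, 63, 64, 66, 67, 68 or 69, with adjusted p up to 0.165 (0.52, without AL mouse 66). In caudate putamen, the region with the highest Dbp level, a single library carried much of the difference: aDR mouse 64 had 474 CPM, the other 4 aDR libraries had 228 to 291 CPM and the AL libraries 203 to 238 CPM. The uncalled change there was 0.45 with that mouse and 0.22 without it.

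In the remaining regions edgeR called no member, and few genes of any kind: 0.0146% in caudate putamen, 0.00707% in choroid plexus, 0.0215% in corpus callosum, 0.00714% in medulla, 0.0212% in SVZ and 0% in the others.

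The hypothalamus holds the suprachiasmatic nucleus, the master pacemaker that is set by light. No member passed edgeR's test for diet there, where 0 genes were called (0%), 639 genes had an unadjusted p under 0.05 and DESeq2 called 13. Usp2 had 43.9, 52.6, 49.5 and 56.1 CPM in aDR mice 62, 64, 65 and 67 and 41.3, 31.2, 37.4 and 34.9 CPM in AL mice 63, 66, 68 and 69. The groups did not overlap, and the change of 0.50 (SE 0.11, edgeR adjusted p = 0.774) was the largest that Usp2 had in the brain. Hlf stood at 76.1, 91.4, 77.4 and 89.0 CPM against 75.7, 64.8, 68.0 and 71.4 CPM, also without overlap (0.27, SE 0.088, edgeR adjusted p = 0.986). Dbp had 94.2, 119.6, 103 and 113 CPM in aDR and 103, 79.4, 81.7 and 102 CPM in AL libraries, which overlapped (0.25, SE 0.12). Tef had 236, 226, 239 and 213 CPM against 215, 217, 213 and 205 CPM (0.12, SE 0.069), and Nfil3 had 14.1, 13.2, 13.5 and 12.7 CPM against 11.2, 17.5, 13.8 and 13.9 CPM (-0.09, SE 0.14). For both, the groups overlapped. The summed level of 5 suprachiasmatic markers varied widely among these libraries, from 14.3 to 826 CPM (median 26.0) in aDR and from 34.4 to 913 CPM (median 227) in AL. Six6 was at 0 in 1 aDR library and the other 4 markers at 0 in none. Avp, which was also on the list of hypothalamus markers, had medians of 6.64 CPM in aDR and 206 CPM in AL. Vip and Prok2 had lower medians in aDR too, Six6 was close (7.07 and 7.27 CPM), and Lhx1 was higher in aDR (9.60 and 7.59 CPM). The sum is therefore no measure of suprachiasmatic content alone. The part of these markers in the values was not tested.

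The liver followed a different order among the 5 genes. Usp2 rose 4.03-fold, whereas Dbp, the member with the largest change in brain, differed by less than its spread. In the livers 26 of 11815 genes were called (0.22%). Usp2 had 83.1, 111, 101, 108 and 115 CPM in DR mice 61, 62, 64, 65 and 67, and 26.3, 25.1, 30.8 and 20.7 CPM in AL mice 63, 66, 68 and 69. The lowest DR liver was far above the highest AL liver, and the change of 2.01 (SE 0.16, edgeR adjusted p = 8.82e-04) had the smallest p of all genes tested in liver. It ran from 1.92 to 2.11 with single mice left out and stayed called.

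Tef had 195, 309, 252, 186 and 176 CPM in DR livers and 130.0, 174, 135 and 124 CPM in AL livers. The lowest DR liver was only just above the highest AL liver, and the change of 0.67 (SE 0.20) missed the threshold (edgeR adjusted p = 0.255). Hlf had 82.6, 129, 108, 103 and 61.2 CPM in DR livers and 62.6, 74.9, 54.6 and 64.8 CPM in AL livers. DR mouse 67 lay within the AL range (0.59, SE 0.21, edgeR adjusted p = 0.377). Nfil3 had 6.90, 6.60, 6.69, 5.00 and 13.6 CPM in DR livers and 13.4, 10.5, 12.6 and 9.02 CPM in AL livers. Again DR mouse 67 was the exception, with the highest value of all 9 livers, and the change was -0.52 (SE 0.27, edgeR adjusted p = 0.617) with it and -0.83 without it, not called in either case. Dbp had 163, 177, 177, 175 and 132 CPM in DR livers and 168, 170.3, 153 and 137 CPM in AL livers. The ranges lay over each other (0.07, SE 0.14, edgeR adjusted p = 0.959).

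Liver and brain of the same 9 mice were then compared directly, by taking the difference between the liver and brain values within a mouse and testing it between diets. Usp2 differed by 1.70 (SE 0.17, limma adjusted p = 0.0063), with a larger diet change in liver than in brain, where 0.0881% of 11350 genes were called. Dbp was lower by this measure (-0.31, SE 0.15, limma adjusted p = 0.680), Tef higher (0.48, SE 0.20, limma adjusted p = 0.585) and Hlf higher (0.37, SE 0.22, limma adjusted p = 0.757). Nfil3 stood at -0.39 (SE 0.27, limma adjusted p = 0.811). For these 4 genes a difference between liver and brain was therefore not detectable with 9 mice.

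**Figure D3:**
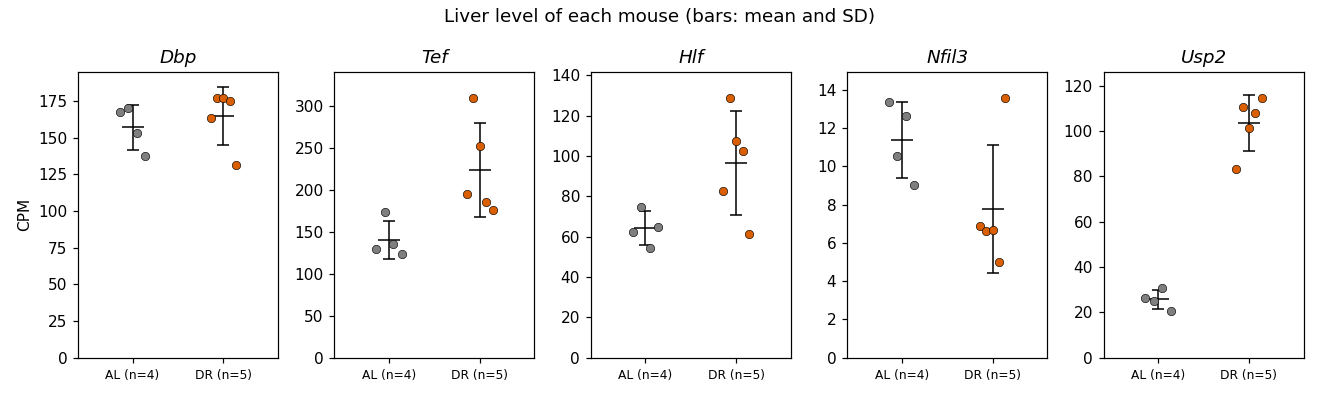
Level in the liver of each mouse (CPM, axis from 0) for the 5 genes, AL and DR mice as points, with the group mean and SD. The DR livers lie at 83.1 to 115 CPM for Usp2 against 20.7 to 30.8 CPM in AL livers, while the Dbp values of the diets lie over each other.

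Plasma of young mice was not followed by a called difference in any member. Across the brain, limma called 0 of 15768 genes for YMP against PBS, and 1315 genes had an unadjusted p under 0.05. Nfil3 came nearest. Its mouse values were 0.16, 0.05 and 0.09 in YMP mice 73, 77 and 81, and -0.01, 0.04, -0.18 and -0.15 in PBS mice 72, 76, 80 and 84. The groups did not overlap, as for 10.1% of genes, and the difference was 0.18 (SE 0.068, unadjusted p = 0.030, limma adjusted p = 0.564). With each library as an observation and the mouse as a replicate block, Nfil3 passed (0.22, limma-voom adjusted p = 0.040). That fit called 468 of the 15768 genes. Dbp had -0.11, 0.07 and -0.21 in YMP mice and 0.09, -0.01, -0.04 and 0.21 in PBS mice, which overlapped (-0.15, SE 0.079, limma adjusted p = 0.646). Tef stood at 0.02 (SE 0.038), Usp2 at -0.02 (SE 0.046) and Hlf at -0.0016 (SE 0.064), with limma adjusted p from 0.888 to 0.996.

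In single regions, none of the 75 member tests for plasma was called by edgeR or by DESeq2, and 7 had an unadjusted p under 0.05. Over all genes 0.00541% of such tests were called, with 0.184% of genes in corpus callosum, which had 2 YMP libraries, 0.00738% in cerebellum and 0% in the others. Dbp was lower in YMP in 13 of 15 regions, from -0.37 in medulla to 0.05 in SVZ, and Nfil3 was higher in 13 of 15, from -0.23 in pons to 0.53 in hypothalamus. Over all genes, 0.998% were lower and 0.576% higher in all 15 regions. That is a stricter condition than 13 of 15, for which no share was computed. In hypothalamus, Nfil3 had 16.5, 15.7 and 18.0 CPM in YMP mice 73, 77 and 81 and 10.3, 11.7 and 12.6 CPM in PBS mice 72, 80 and 84. The groups did not overlap (0.53, SE 0.14, unadjusted p = 0.0055, edgeR adjusted p = 0.964). With n = 3 each, a lack of overlap carries little weight, and its share over all genes was not computed. Hlf had 93.4, 124 and 80.5 CPM in the same YMP libraries and 68.5, 64.7 and 85.7 CPM in the PBS libraries, which overlapped (0.43, SE 0.17). Dbp averaged 67.8 ± 3.76 and 70.9 ± 13.7 CPM, Tef 202 ± 6.85 and 215 ± 19.6 CPM, and Usp2 42.1 ± 8.96 and 37.6 ± 2.32 CPM in YMP and PBS hypothalamus (SD, n = 3 each), all with overlap. The suprachiasmatic markers summed to 14.1 to 392 CPM (median 21.9) in these YMP libraries and to 124 to 582 CPM (median 355) in the PBS libraries, with none of the 5 at 0 in any of them. Avp had medians of 4.78 CPM in YMP and 298 CPM in PBS libraries. Vip, Prok2 and Six6 had lower medians in YMP too, and Lhx1 did not (7.24 and 6.89 CPM). The part of these markers in the values was not tested.

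The other extremes of the plasma comparison were Tef at 0.33 in SVZ and -0.16 in medulla, Hlf at -0.41 in pons, and Usp2 at -0.31 in medulla and 0.16 in anterior hippocampus. The effect of plasma was not detectably different between regions for any of the 5 genes (edgeR's quasi-likelihood F test, adjusted p = 0.702 for Tef and 1 for the others), while that test called 0.786% of genes. The summed level of 6 choroid plexus markers, averaged over the regions of a mouse, was 22.5 to 1099 CPM in YMP and 1203 to 3133 CPM in PBS mice, and each of the 6 was at 0 in some brain libraries. Across the brain, limma called 0 genes for plasma with the choroid plexus libraries and 0 without them, so leaving them out could hardly change a member's call. The part of choroid plexus content in the plasma values was not tested.

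The diet and plasma effects were compared on the mouse values of both experiments. Dbp, Nfil3 and Usp2 differed between them, and Tef and Hlf did not pass. The difference of the 2 effects was 0.52 for Dbp (SE 0.093, limma adjusted p = 0.0249), -0.38 for Nfil3 (SE 0.071, limma adjusted p = 0.0371) and 0.33 for Usp2 (SE 0.055, limma adjusted p = 0.0219), where 0.226% of 15518 genes were called. It was 0.15 for Tef (SE 0.042, limma adjusted p = 0.162) and 0.18 for Hlf (SE 0.097, limma adjusted p = 0.476). The calls were close to the threshold: the Dbp call was lost without mouse 63, 66, 68, 72, 73 or 81, and so was the Usp2 call, with adjusted p up to 0.095 and 0.089 (0.51 and 0.30, without YMP mouse 73). The Nfil3 call held without aDR mouse 67, PBS mouse 76 or PBS mouse 84 and was lost without any other mouse, with adjusted p up to 0.110 (-0.36, without YMP mouse 73). Treatment, sex and experiment cannot be told apart in this comparison.

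In the control mice of both experiments, the level of each member depended strongly on region, and the order differed between members. Of 105 pairs of regions, tested with edgeR and the mouse as a block, 80 differed for Dbp, 80 for Tef, 85 for Hlf, 76 for Nfil3 and 86 for Usp2, against 58.7% of such tests over all genes. Most neighbours in the order were not called. These tests compared regions within mice that had both, whereas the SDs given below are between mice. Each SD pools AL females and PBS males and so includes any gap between the experiments. Mean Dbp was 222 CPM in AL and 176 CPM in PBS caudate putamen, and 72.6 CPM in AL and 42.8 CPM in PBS pons.

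Dbp was highest in caudate putamen, at 199 ± 32.7 CPM (SD, n = 8), followed by corpus callosum at 138 ± 34.7 (n = 6), thalamus at 117 ± 13.7 (n = 8) and SVZ at 110.05 ± 22.4 (n = 8). From visual cortex at 97.4 ± 15.7 (n = 7) the level descended without a called step through motor cortex, posterior hippocampus, cerebellum, entorhinal cortex, hypothalamus, anterior hippocampus and olfactory bulb to choroid plexus at 74.3 ± 14.6 (n = 8). Medulla (60.6 ± 10.7, n = 8) and pons (59.8 ± 19.8, n = 7) were lowest, so that the range was 3.33-fold. The neighbours that differed were caudate putamen and corpus callosum (edgeR adjusted p = 0.0063), SVZ and visual cortex (0.0130), and choroid plexus and medulla (0.0206).

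Tef also had its highest mean in caudate putamen and its lowest means in pons and medulla. Caudate putamen stood at 402 ± 64.2 CPM (SD, n = 8) and medulla at 158 ± 13.98 (n = 8), a 2.54-fold range. In between, 9 regions from posterior hippocampus (316 ± 20.1, n = 7) to choroid plexus (249 ± 17.6, n = 8) held no called step between neighbours. Hypothalamus, olfactory bulb and thalamus followed at 213 ± 12.04 (n = 7), 208 ± 6.17 (n = 8) and 207 ± 5.16 (n = 8), again without a called step, and then pons at 164 ± 14.02 (n = 7). The 3 steps with a called difference were caudate putamen to posterior hippocampus (edgeR adjusted p = 0.0161), choroid plexus to hypothalamus (0.0181) and thalamus to pons (1.34e-04).

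Hlf had another order, with thalamus at 324 ± 85.1 CPM (SD, n = 8), visual cortex at 290.5 ± 25.0 (n = 7) and motor cortex at 269 ± 19.4 (n = 8) at the top, and medulla at 75.4 ± 13.8 (n = 8) and hypothalamus at 71.3 ± 7.43 (n = 7) at the bottom, a 4.54-fold range. Its called neighbours were caudate putamen and anterior hippocampus (edgeR adjusted p = 0.0150), olfactory bulb and cerebellum (0.0073), and choroid plexus and medulla (0.0056). Nfil3 was highest in olfactory bulb at 38.0 ± 7.60 CPM (SD, n = 8), then cerebellum at 28.4 ± 2.35 (n = 7) and visual cortex at 24.8 ± 3.31 (n = 7). It was lowest in medulla at 10.02 ± 1.13 (n = 8) and caudate putamen at 9.92 ± 1.85 (n = 8), a 3.83-fold range. Dbp and Tef were highest in caudate putamen, but medulla was among their lowest regions too. Called neighbours were olfactory bulb and cerebellum (edgeR adjusted p = 0.0024), visual and motor cortex (2.38e-04), and SVZ and medulla (0.0313).

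Usp2 was highest in cerebellum at 160.0 ± 15.6 CPM (SD, n = 7) and visual cortex at 151 ± 13.5 (n = 7), a pair that was not called. It was lowest in pons at 56.4 ± 5.52 (n = 7), medulla at 40.8 ± 9.36 (n = 8) and hypothalamus at 36.8 ± 3.37 (n = 7). Its range was 4.35-fold. The 4 called neighbours were visual cortex and caudate putamen (edgeR adjusted p = 0.0498), posterior hippocampus and choroid plexus (0.0192), olfactory bulb and pons (1.56e-05), and pons and medulla (0.0114). With liver and brain libraries of AL mice scaled together (TMM), the liver stood above the mean of the brain regions for Dbp (1.55 on the log2 scale, SE 0.072, edgeR adjusted p = 1.17e-25) and Nfil3 (0.49, SE 0.11, edgeR adjusted p = 4.19e-05). It stood below for Usp2 (-0.93, SE 0.089, edgeR adjusted p = 8.85e-14) and Hlf (-0.31, SE 0.13, edgeR adjusted p = 0.0257), and Tef did not pass (0.10, SE 0.067, edgeR adjusted p = 0.178). In that comparison 86.3% of genes were called, so a call there is the common case, and the median over all genes was -0.28. With library size as the only scaling that median was -1.22, Nfil3 (-0.45) and Tef (-0.84) stood below the brain regions and passed, Dbp was 0.62, and Hlf and Usp2 were lower still (-1.24 and -1.87). The direction for Nfil3 and Tef therefore depends on the scaling, and the CPM of liver and brain given above, which were scaled separately, are not comparable.

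**Figure D4:**
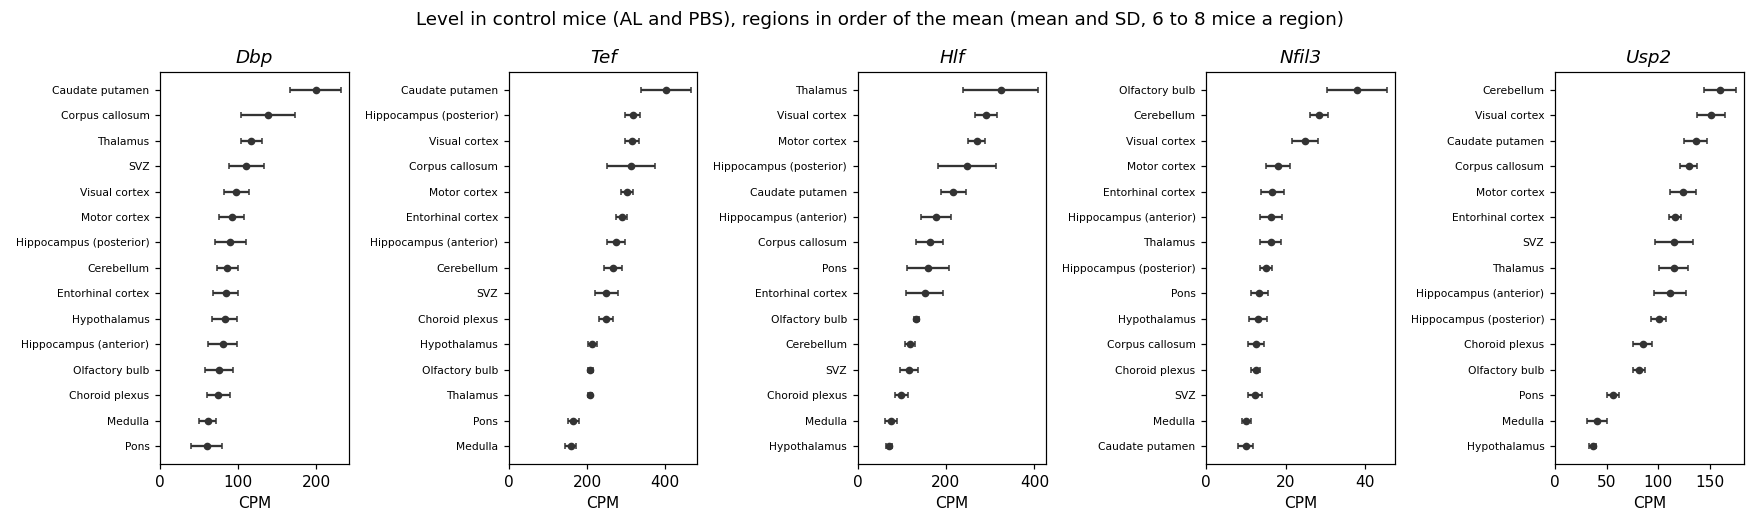
Level of each gene in the control mice (CPM, mean with SD as bars, AL and PBS mice together), regions in descending order of the mean for that gene. Caudate putamen is at the top for Dbp (199 CPM) and Tef (402 CPM) and at the bottom for Nfil3 (9.92 CPM). Medulla is at or near the bottom for each of these genes.

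Over the 131 brain libraries of the diet experiment, region accounted for 74.7% of the sum of squares of log2 Dbp levels and for 85.9% to 90.4% of that of the other 4. Treatment accounted for 13.02% for Dbp, 4.67% for Usp2, 4.30% for Tef, 2.84% for Nfil3 and 1.34% for Hlf. Differences between mice of the same diet accounted for 0.112% to 1.63%, less than treatment for every member except Hlf (1.596% against 1.34%). In the 98 libraries of the plasma experiment, treatment accounted for at most 2.64%, reached for Nfil3.

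Of the 10 pairs of members, 1 was called as varying together between mice of the same treatment, by Pearson's r and not by Spearman's rho. After the mean of each treatment group was subtracted, the Dbp and Tef values of the 16 mice had a Pearson r of 0.73 (permutation p = 0.0029, adjusted over 10 pairs 0.0287) and a Spearman rho of 0.64 (permutation p = 0.0130, adjusted 0.0703). Without the 2 mice farthest from the Dbp median r was 0.63, and it was 0.67 in the diet and 0.78 in the plasma mice. Dbp and Usp2 had r of 0.67 and rho of 0.65 (permutation p = 0.0165 and 0.0211, adjusted 0.0550 and 0.0703), with r of 0.54 without the 2 farthest mice. Tef and Usp2 had r of 0.60 and rho of 0.61 (permutation p = 0.0121 and 0.0160, adjusted 0.0550 and 0.0703), with r of 0.68 without the 2 farthest mice. The other 7 pairs, each with Hlf or Nfil3, had r from -0.41 to 0.17 with adjusted p of at least 0.263. The mouse values of a pair come from the same libraries. Across the 15 region means in control mice, as a description over points that share libraries and mice, r was 0.76 for Tef and Usp2 and 0.72 for Dbp and Tef. For Nfil3 it was -0.21 with Dbp, 0.04 with Tef, 0.23 with Hlf and 0.35 with Usp2.

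The genes most like each member were taken from the 3 of highest Pearson r among 15517 genes, without a test. Over the 15 region means these were Sphk2 (0.94) and Pde7b for Dbp, Lzts3 (0.94), Nedd4l and Ubox5 for Tef, and Vti1a (0.88), Myo5a and Pcsk2os1 for Hlf. For Nfil3 they were Cramp1l (0.94), Crebzf and Dnmt1, and for Usp2 Gabrd (0.96), Rexo1 and Ubtf. Over the deviations of the 16 mice, Dbp was most like Plekho1 (0.91), Sphk2 (0.91) and Ido2, Tef like Krba1 (0.89), Ldb1 and Rnft2, and Hlf like Tmem250-ps (0.92), Hs3st5 and Teddm3. Nfil3 was most like Gpr3 (0.89), Taf5 and the activity-regulated gene Arc, and Usp2 like Fsbp (0.86), Dlx4os and Nckap1l. Sphk2 is the gene whose exons overlap those of Dbp. How reads from the shared stretch were counted is not given in the sources used here, and their part in this likeness was not tested.

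The rest of the clock was read from lists by role, which were also chosen with earlier results of these data known. Of 10 repressors of the loop, 6 rose across the brain in aDR mice and none fell, with a list median of 0.19 against -0.01 over all genes. Ciart, a repressor of Clock and Bmal1, rose by 0.76 (limma adjusted p = 3.36e-06), Cry1 by 0.37 (0.0028), Per1 by 0.33 (0.0121) and Per2 by 0.42 (0.0143), and the remaining calls were Per3 and Cry2. Nr1d1 and Nr1d2, the nuclear receptors that repress Arntl and Nfil3, stood at 0.03 (limma adjusted p = 0.679) and 0.10 (0.269). Of 6 activators, Arntl fell by 0.32 (limma adjusted p = 0.0021) and none rose, with a median of -0.08. Of 6 clock kinases and ubiquitin ligases none was called by limma and 1 had an unadjusted p under 0.05 (median -0.02). Of the 7 measured PAR bZIP target genes, Por, the electron donor of cytochromes P450, rose by 0.13 (limma adjusted p = 0.0418) and Nr1i3, the nuclear receptor CAR, fell by 0.20 (0.0389). Of 8 other clock-controlled outputs Tspan4 rose by 0.34 (limma adjusted p = 0.0045).

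In liver, where Usp2 was the only member called, 2 of 10 repressors rose and 1 fell: Ciart by 1.97 (edgeR adjusted p = 0.0023), Cry1 by 1.93 (0.0047), and Nr1d1, which fell by 1.604 (0.0254). Over all genes of the liver 0.152% were called higher and 0.0677% lower. Among the activators, Arntl stood at -1.01 (edgeR adjusted p = 0.287). Of the 10 PAR bZIP target genes, Alas1, the rate-limiting enzyme of haem synthesis, rose by 1.30 (edgeR adjusted p = 0.0308). The median of that list was 0.68 against 0.02 over all genes of the liver, and 9 of its 10 members stood above 0 while 1 of them was called. None of the 6 kinases and ligases and none of the 5 other outputs measured in liver passed (edgeR), and 0 and 4 of them had an unadjusted p under 0.05. For plasma, 0 genes of the 5 lists were called across the brain (limma), and 2 activators, 2 repressors and 1 other output had an unadjusted p under 0.05, with list medians from -0.05 to 0.05.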

How the data were processed

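RNA was measured in 229 brain libraries and 9 livers. The deposited values are raw whole-number counts per gene in 1 table made by the authors. Per the submitters' processing notes the tools were Trim Galore 0.3.7, STAR 2.5.3a and DESeq2, with build GRCm38; the counting program and annotation are not given in the sources used here. Groups and mouse numbers came from the labels, and the labels' protocols describe Smart-Seq2 cDNA with Nextera XT libraries, unstranded.

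Genes were filtered with filterByExpr (minimum count 10, minimum total 15). Each tissue was fitted alone with edgeR 4.0.16 (R 4.3.3, TMM, quasi-likelihood test). Across brain, limma 3.58.1 (eBayes with trend) tested 1 value per gene and mouse, the mouse term of a fit of log2 CPM (prior count 2) with region as the other term. P-values were adjusted by Benjamini-Hochberg over all genes tested and called under 0.05. Correlations used 100000 permutations within treatment groups. DESeq2 1.42.0 was an alternative to edgeR. The steps were tested on simulated counts with 200 genes changed 2-fold: 79.5% (1 plasma region) to 100% were called. Of the genes called, 2.91% to 9.81% (the latter by DESeq2) were not changed. The changed genes were well expressed in every tissue, and no effect was shared by the libraries of a mouse. The brain changes reported here were below 2-fold, so this recovery does not give the power to detect them.

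The members and gene lists were chosen with earlier results of these data known. Named were the 5 members, their values by library in liver, hypothalamus and up to 3 called regions, up to 4 called genes per list and comparison by p, and the 3 genes most alike per measure. Values in caudate putamen were added after they were seen. Mouse numbers mark the same animal across regions: deviations from group means correlated at 0.040 (diet) and 0.073 (plasma) within a mouse and at -0.0049 and -0.012 between mice. No 2 of 357 replicate pairs agreed within counting noise (chi-square per degree of freedom at least 1.29). Promoter windows were RefSeq, GRCm38.p6; gene loci and overlaps were GENCODE M21. There were 0 unused columns. Some genes that the naming rules or the lists hold are not reported here.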

Additional observations from a re-analysis of the deposited data

Results flagged for a closer look

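Diet and plasma effects differed between the experiments for Dbp (0.52 on the log2 scale), Nfil3 (-0.38) and Usp2 (0.33), and the diet effect on Usp2 was larger in liver than in brain by 1.70, each by limma's test of the difference. Single libraries stood apart from their group in 17 of 210 groups of 4 or 5 libraries or mice, where chance alone gives about 10.5. For Dbp these were aDR mouse 64 in caudate putamen (474 CPM, the others 228 to 291), PBS mouse 80 in motor cortex (67.3, others 79.7 to 82.1) and AL mouse 68 in pons (94.4, others 63.4 to 68.7). For Tef they were AL mouse 69 in anterior hippocampus (313 CPM, others 256 to 265), aDR mouse 64 in SVZ (413, others 251 to 297) and PBS mouse 72 in SVZ (299, others 218 to 230.3). For Hlf they were PBS mouse 76 in choroid plexus (127 CPM, others 89.5 to 92.6), PBS mouse 72 in entorhinal cortex (239, others 111 to 131), AL mouse 68 in motor cortex (252, others 265 to 267) and aDR mouse 67 in olfactory bulb (169, others 154 to 158).

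For Nfil3 they were PBS mouse 72 in caudate putamen (13.9 CPM, others 9.42 to 10.2), aDR mouse 67 in cerebellum (33.2, others 24.4 to 26.7) and choroid plexus (12.996, others 9.32 to 9.98), PBS mouse 84 in choroid plexus (11.1, others 13.05 to 13.4), aDR mouse 64 in entorhinal cortex (17.2, others 12.2 to 13.3) and DR mouse 67 in liver (13.6, others 5.00 to 6.90). For Usp2 it was PBS mouse 76 in thalamus (91.3 CPM, others 125 to 126). Mouse 67 of the restricted group supplied 4 of these libraries, 3 of them high Nfil3 values.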

How the results depend on the processing

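The diet calls of Dbp and Usp2 across the brain, the liver call of Usp2 and its excess over brain held under every alternative run, which were RLE scaling, no filter, prior count 0.5, no libraries under 2 M counts, no choroid plexus, no corpus callosum, limma without an intensity trend, the pons library left out (the last 2 chosen after seeing the data), both voom fits and each mouse left out, as far as each applied. Of 992 alternative values for 97 results, 887 kept direction and side of the threshold or, for counts and correlations, stayed close to the reported value. For 110 other uncalled region results, 1095 alternative values stayed the same and 60 changed sign.

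With each library as an observation and the mouse as a replicate block (limma-voom), Hlf passed for diet at 0.17 and Nfil3 for plasma at 0.22. With no replicate block, which treats regions of a mouse as independent, Hlf (0.17), Nfil3 for plasma (0.21) and Dbp for plasma (-0.16) passed. The block changed no other call. Genes called for diet across the brain numbered 1475 with the block and 2760 with no block, and for plasma 468 and 2629. The diet number was 144 without an intensity trend, 165 without a filter and 52 to 311 with a mouse left out. With library size as the only scaling (chosen, like RLE here, after seeing the data), the AL liver against brain level changed sign for Tef (-0.84) and Nfil3 (-0.45), and with RLE Tef passed (0.18) and Hlf did not (-0.22). DESeq2 called 12 member-by-region tests for diet and leaving out a mouse gave 2 to 6. Nfil3 differed in 48 region pairs in PBS mice alone, with fewer mice.

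With a mouse left out, the diet effect ran from 0.16 to 0.18 for Tef and from -0.22 to -0.21 for Nfil3. The diet minus plasma effect ran from 0.46 to 0.60 for Dbp, -0.42 to -0.34 for Nfil3 and 0.30 to 0.38 for Usp2. The plasma effect changed sign, never called, for Hlf (-0.054 to 0.054, and 0.0049 without small libraries) and Usp2 (-0.074 to 0.0044). So did uncalled region values of Hlf in anterior hippocampus (-0.19 to 0.079, diet), Nfil3 in hypothalamus (-0.18 to 0.049, diet) and visual cortex (-0.019 to 0.12, diet), Dbp in hypothalamus (-0.21 to 0.085, plasma) and SVZ (-0.19 to 0.24, plasma), and Usp2 in hypothalamus (-0.035 to 0.26, plasma). The cause was not tested. Groups of 2 to 5 mice and libraries down to 0.606 M counts limit what single regions can show, above all for Nfil3, whose median count was 121.5.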
